A study of Arabidopsis thaliana with 11 samples.

Results

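The step from day 2 to day 4 of synchronised flower development was examined in Arabidopsis thaliana inflorescences by RNA sequencing. All plants were of the ecotype Landsberg and carried pAP1:AP1-GR in the ap1-1 cal-1 background, and the comparison was between 3 libraries of day 4 and 2 libraries of day 2, out of 11 in the series. The ap1 cal plants make inflorescence meristems in place of flowers, and dexamethasone (DEX) lets the fused regulator AP1-GR enter the nucleus and start flowers together. DEX was given daily, at a concentration that the sources state as 2 mM, 1 uM or 2 uM, and the 3 libraries of day 0, taken before treatment, are set beside both days. Each library came from a pool of inflorescences. No plants left untreated after day 0 were compared, so that day, plant age and floral stage cannot be told apart. The promoter of the transgene is active in floral tissue, and the AP1 values do not separate the transgene from the mutant gene. Because whole inflorescences were sampled, fewer cells of a type and less RNA per cell cannot be told apart either.

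In the Arabidopsis flower, meristem identity regulators such as LFY and AP1 act first, and the organ identity genes follow in rings. AP3 and PI together specify petals and stamens, AG specifies stamens and carpels, and the SEP proteins join these in complexes of MADS-domain factors. Boundary genes then keep whorls and single organs apart, while growth and polarity genes shape the primordia.

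Of 18235 genes with at least 1 FPKM (sequenced fragments scaled by transcript length and library size) in at least 2 of the 5 libraries, 74 were called changed at day 4 against day 2, or 0.406% of the genes tested. A call needed an adjusted p under 0.05 (limma, Benjamini-Hochberg) together with a 2-fold or larger difference in FPKM + 1. Genes that rose numbered 61 (0.335%) and genes that fell numbered 13 (0.0713%). At an unadjusted p under 0.05 the balance was nearly even, with 1315 genes higher and 1227 lower at day 4, and the median change of all tested genes was -0.01 on the log2 scale. Of the 61 genes that rose, 11 were under 1 FPKM in both day 2 libraries and entered the test only through their day 4 level, so that they had to differ.

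The libraries of day 4 resembled each other more closely than those of day 2. Across genes, r on the log2 scale was 0.990 to 0.992 among the day 4 libraries and 0.983 between the day 2 libraries. Replicate 2 of day 2 was as near to day 4 (r = 0.981 to 0.983) as to its own replicate, whereas replicate 1 gave 0.972 to 0.976. The pooled SD of a gene within a day was 0.16 at day 4 and 0.23 at day 2 on the log2 scale. These single libraries decided many calls. Without replicate 1 of day 2, 30 genes rose and 1 fell; without replicate 2 of day 2, 70 rose and 47 fell; without replicate 1, 2 or 3 of day 4, 40, 51 or 29 rose and 12, 4 or 3 fell. With all 5 leave-outs, 20 of the 74 calls were kept each time, all of them rises, and 5 of the 20 are among the 11 genes that entered through day 4.

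Floral organ identity genes rose together in this step. Of the 11 genes listed, 8 were tested and 6 rose (AP3, PI, AG, SEP1, SEP2 and SEP3), where 0.335% of all tested genes did. None fell, and the median change was 1.79 on the log2 scale. Each of the 6 rises was separated from day 2 without overlap, as was AP2, a count of 7 of 8, where 19.1% of all tested genes had every day 4 library above every day 2 library. The list was chosen with results of these data known.

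AP3 had 183, 177 and 168 FPKM in the day 4 libraries, against 37.6 and 37.7 FPKM in the day 2 libraries. Its level had been at most 0.184 FPKM at day 0, so that most of its climb on the log2 scale had come by day 2 (5.11) and a further 2.2 ± 0.13 (SE, adjusted p = 2.8e-05) followed. PI, its partner, had 103, 107 and 110 FPKM at day 4, against 34.3 and 37.5 FPKM at day 2. The PI transcript was already at 25.1 ± 4.35 FPKM before treatment (SD, n = 3), and its change by day 2 was 0.51 on the log2 scale, against 1.54 ± 0.14 (SE, adjusted p = 0.00054) in this step. The partners thus stood at similar levels at day 2 and AP3 above PI at day 4.

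AG, the C-class gene, had 13.8, 15.1 and 12.5 FPKM at day 4, against 1.41 and 1.67 FPKM at day 2. It rose by 2.54 ± 0.17 on the log2 scale (SE, adjusted p = 6.5e-05), the largest change of the list, while the change by day 2 had been 1.18. Its groups were far apart, with each day 4 library above 12 FPKM and each day 2 library under 2 FPKM. The related ovule and carpel genes SHP1, SHP2 and STK stayed under 1 FPKM in all 5 libraries and were not tested. SHP1 had 0.525 to 0.765 FPKM at day 4, against 0.789 and 0.808 FPKM at day 2.

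Of the 4 SEP genes, 3 rose, where 0.335% of all tested genes did. SEP3, the most widely interacting partner of the organ identity factors, had 24.4, 27.8 and 27.1 FPKM at day 4, against 3.67 and 4.50 FPKM at day 2, a rise of 2.44 ± 0.13 on the log2 scale (SE, adjusted p = 1.6e-05). SEP2 had 50.3, 47.9 and 48.8 FPKM at day 4, against 9.53 and 12.9 FPKM at day 2, and rose by 2.04 ± 0.24 (SE, adjusted p = 0.0025). SEP2 was the member of the 6 whose call depended on one library, being lost without replicate 1 of day 2. SEP1 rose by 1.45 ± 0.15 (SE, adjusted p = 0.0011), with 14.5, 15.1 and 14.1 FPKM at day 4, against 3.98 and 5.50 FPKM at day 2. Annotated genes on the opposite strand overlap part of SEP1, and the libraries were made with a stranded kit, but whether the counting used strand is not given in the sources used here. SEP4 had 38.3, 40.0 and 40.7 FPKM at day 4, against 41.1 and 38.3 FPKM at day 2, with overlapping groups, and the A-class gene AP2 had 80.0, 80.0 and 79.2 FPKM, against 65.4 and 66.9 FPKM (0.27 ± 0.13, SE, adjusted p = 0.40). Thus SEP4 and AP2, present from day 0, were not among the genes called in this step.

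**Figure D1:**
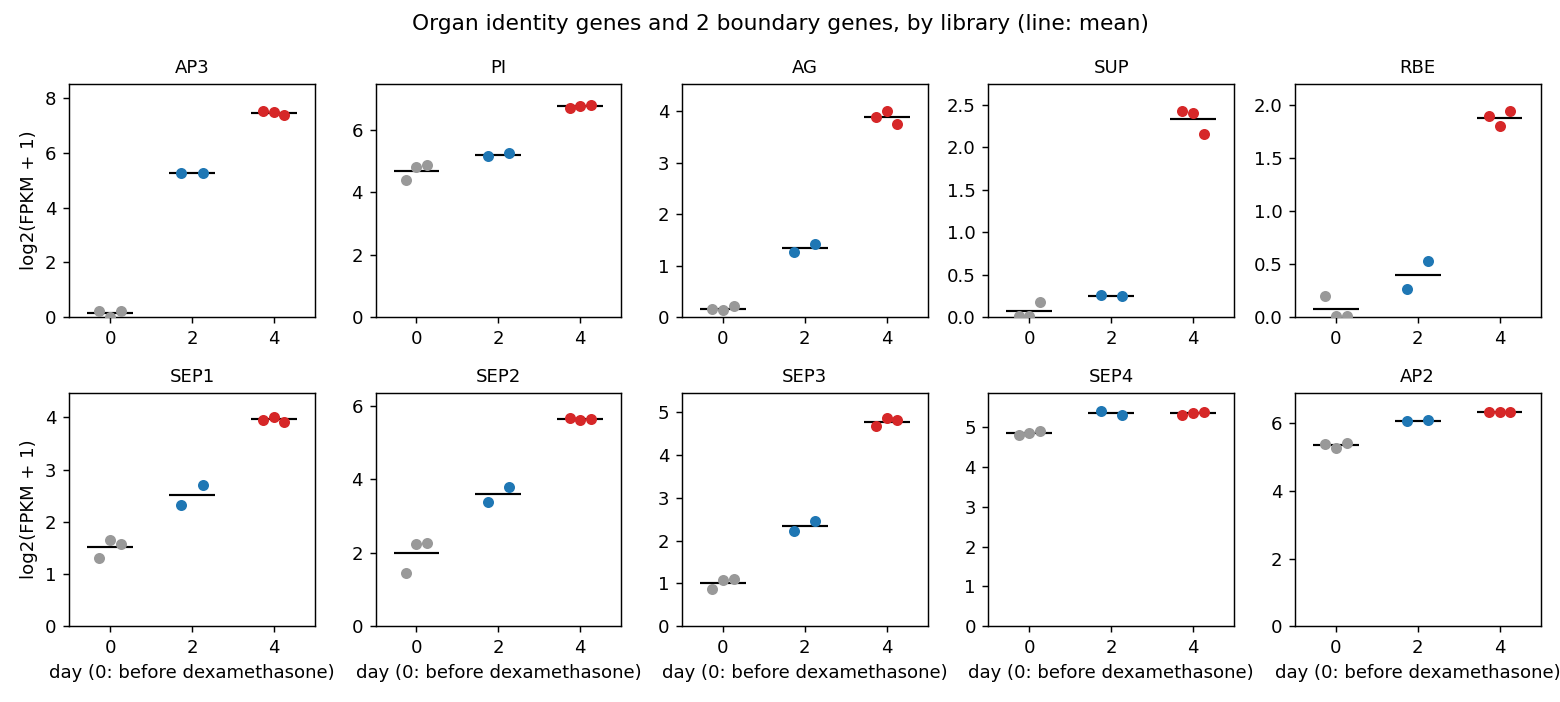
Level of 8 organ identity genes and the boundary genes SUP and RBE, as log2(FPKM + 1) on the vertical axes, in each library of days 0, 2 and 4 (points), with the mean of each day (lines). For AP3, PI, AG, SEP1, SEP2, SEP3, SUP and RBE the 3 day 4 libraries lie above both day 2 libraries, whereas those of SEP4 overlap.

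In the boundary gene list 2 of 16 tested members were called, SUP and RBE, both of which encode C2H2 zinc finger proteins, where 0.335% of all tested genes rose. Both are among the 11 genes that entered the test only through day 4 and had to differ, so that their calls and p-values describe them and support nothing about the list. SUP, which keeps stamen and carpel whorls apart, had 4.37, 4.30 and 3.46 FPKM at day 4, against 0.195 and 0.187 FPKM at day 2, and rose by 2.08 ± 0.20 on the log2 scale (SE, adjusted p = 0.0006). RBE, which acts in the spaces where petals arise, had 2.73, 2.5 and 2.85 FPKM at day 4, against 0.202 and 0.446 FPKM at day 2, and rose by 1.48 ± 0.14 (SE, adjusted p = 0.00078). Both were under 0.5 FPKM in every library of days 0 and 2 and above 2 FPKM in every library of day 4. The list's median was -0.01. The remaining members included CUC1, which separates neighbouring organs, at 53.0, 49.4 and 50.6 FPKM at day 4, against 30.8 FPKM in both day 2 libraries (0.71 ± 0.17, SE, adjusted p = 0.096). CUC2 (0.32) and CUC3 (-0.26) differed from each other in sign, and neither passed.

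Transcription factors without an organ identity role stood among the largest rises. REM22, a B3-domain gene of the REM family, had 7.85, 8.06 and 6.23 FPKM at day 4, against 0.195 and 0.109 FPKM at day 2, which was the largest rise of all (2.86 ± 0.17, SE, adjusted p = 2.9e-05). AT5G57720, another gene of this family, had 8.91, 11.5 and 9.82 FPKM at day 4, against 1.3 and 0.743 FPKM at day 2 (2.46 ± 0.15, SE, adjusted p = 3.3e-05). They were 2 of the 4 REM genes tested, where 0.335% of all tested genes rose. Of the 4, 1 lay below day 2 without overlap, where 22.1% of all tested genes did. The list named 16 REM genes, of which only 5 could be matched in the table. The MADS-box gene AGL15, known for its role in embryos, had 15.6, 16.7 and 14.7 FPKM at day 4, against 2.92 and 4.04 FPKM at day 2, a rise of 1.90 ± 0.13 (SE, adjusted p = 6.7e-05). The related BEL1-like homeodomain genes BLH2 and BLH4, whose proteins restrain growth at leaf margins, both rose. BLH2 had 18, 16.7 and 15.3 FPKM at day 4, against 3.94 and 3.74 FPKM at day 2, and BLH4 had 10.7, 11.7 and 9.78 FPKM, against 4.21 and 3.79 FPKM. REM22 is one of the 11 genes that entered the test only through day 4 and had to differ. The calls of the other 4 (AT5G57720, AGL15, BLH2 and BLH4) were kept in every leave-out of a compared library.

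Organ growth and polarity genes contributed a single call, among 23 growth and 18 polarity genes tested, where 0.335% of all tested genes rose. This was JAG, a growth gene, which encodes a zinc finger regulator of distal organ growth. It had 31.1, 33.6 and 30.3 FPKM at day 4, against 13.1 and 9.79 FPKM at day 2, and rose by 1.4 ± 0.24 (SE, adjusted p = 0.025), although the call was lost without any one of the 5 libraries. Its close relative NUB had 23.8, 24.3 and 25.2 FPKM at day 4, against 12.7 and 14.1 FPKM at day 2 (0.82 ± 0.17, SE, adjusted p = 0.049), below the 2-fold minimum. The abaxial genes FIL and YAB3, of 18 polarity genes, were similar. FIL had 571, 548 and 490 FPKM at day 4, against 272 and 292 FPKM at day 2 (0.92, adjusted p = 0.047), and YAB3 had 115, 127 and 112 FPKM, against 67.3 and 58.6 FPKM (0.90, adjusted p = 0.047). AIL7, an AP2-type gene of meristem and organ growth, had 18.3, 18.2 and 16.0 FPKM at day 4, against 42.7 and 29.1 FPKM at day 2 (-0.97 ± 0.15, SE, adjusted p = 0.014), with no overlap. These 4 genes passed the adjusted p but not the fold. The medians of the growth and polarity lists were 0.001 and 0.10. Of their members 12 of 23 and 11 of 18 had a positive change, where 48.4% of all tested genes did. INO, another polarity gene, had 0.594, 0.538 and 0.577 FPKM at day 4, against 1.25 and 2.65 FPKM at day 2 (-0.87 ± 0.20, SE, adjusted p = 0.082). In the gynoecium list, 1 of 14 tested members rose, where 0.335% of all tested genes did. It was NGA1, a B3 factor of the style, with 7, 6.68 and 6.64 FPKM at day 4, against 2.65 and 3.09 FPKM at day 2. Its adjusted p was 0.026, and it too was lost without any one of the 5 libraries. The gynoecium list's median was -0.11, and 4 of 14 members had a positive change, where 48.4% of all tested genes did. In 6 of 14 every day 4 library lay below every day 2 library, where 22.1% of all tested genes did. In 3 of 14 every one lay above, where 19.1% did.

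None of the 8 meristem identity genes was called, and the list's median was 0.18. LFY had 106, 105 and 105 FPKM at day 4, against 69.2 and 81.8 FPKM at day 2 (0.48 ± 0.11, SE, adjusted p = 0.071), while its change by day 2 had been 1.27. AP1 had 266, 274 and 248 FPKM, against 167 and 191 FPKM (0.55 ± 0.16, SE, adjusted p = 0.15). UFO, the F-box partner of LFY in activating AP3, had 32.2, 33.9 and 29.2 FPKM at day 4, against 18.5 and 22.8 FPKM at day 2 (0.60 ± 0.11, SE, adjusted p = 0.038), under 2-fold, and its difference of day 2 minus day 0 was -0.01. For LFY, AP1 and UFO every day 4 library lay above both day 2 libraries. Over the list 4 of 8 members did so, where 19.1% of all tested genes did. CAL (-0.41) and PUCHI (-0.49) were the 2 members that lay below without overlap, where 22.1% of all tested genes did.

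Genes of the floral transition and of inflorescence identity were mostly lower at day 4, without a call. Only 2 of 21 tested members had a positive change, the median was -0.26, and in 13 of 21 every day 4 library lay below every day 2 library, where 22.1% of all tested genes did. TOE1, an AP2-type repressor of flowering, had 14.0, 12.8 and 14.5 FPKM at day 4, against 29.1 and 21.3 FPKM at day 2 (-0.81 ± 0.15, SE, adjusted p = 0.033). SPL9, which promotes phase change, had 70.1, 66.8 and 71.0 FPKM, against 115 and 93.2 FPKM (-0.58 ± 0.10, SE, adjusted p = 0.027). SVP, a MADS-domain repressor of flowering, had 56.8, 54.4 and 59.0 FPKM, against 75.5 and 90.8 FPKM (-0.54 ± 0.11, SE, adjusted p = 0.049). For all 3 the adjusted p passed and the fold did not. The stem cell genes WUS (-0.25), CLV3 (-0.40) and STM (-0.20) had adjusted p of 0.52 to 0.62, and no member of the 19 tested in the meristem maintenance list was called. Of these 19, 8 had a positive change, among them CLV1 (0.17) and ATH1 (0.42), where 48.4% of all tested genes did. The list's median was -0.10. The cell division lists were also without calls, at medians of -0.12 over 20 mitosis genes and -0.18 over 21 DNA replication genes. Of these, 3 of 20 and 2 of 21 had a positive change, where 48.4% of all tested genes did. Without overlap, 9 of 20 and 8 of 21 lay below day 2, where 22.1% did. At day 2 minus day 0, 19 of 20 and 13 of 21 had been positive, where 9331 of 18235 tested genes were.

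**Figure D2:**
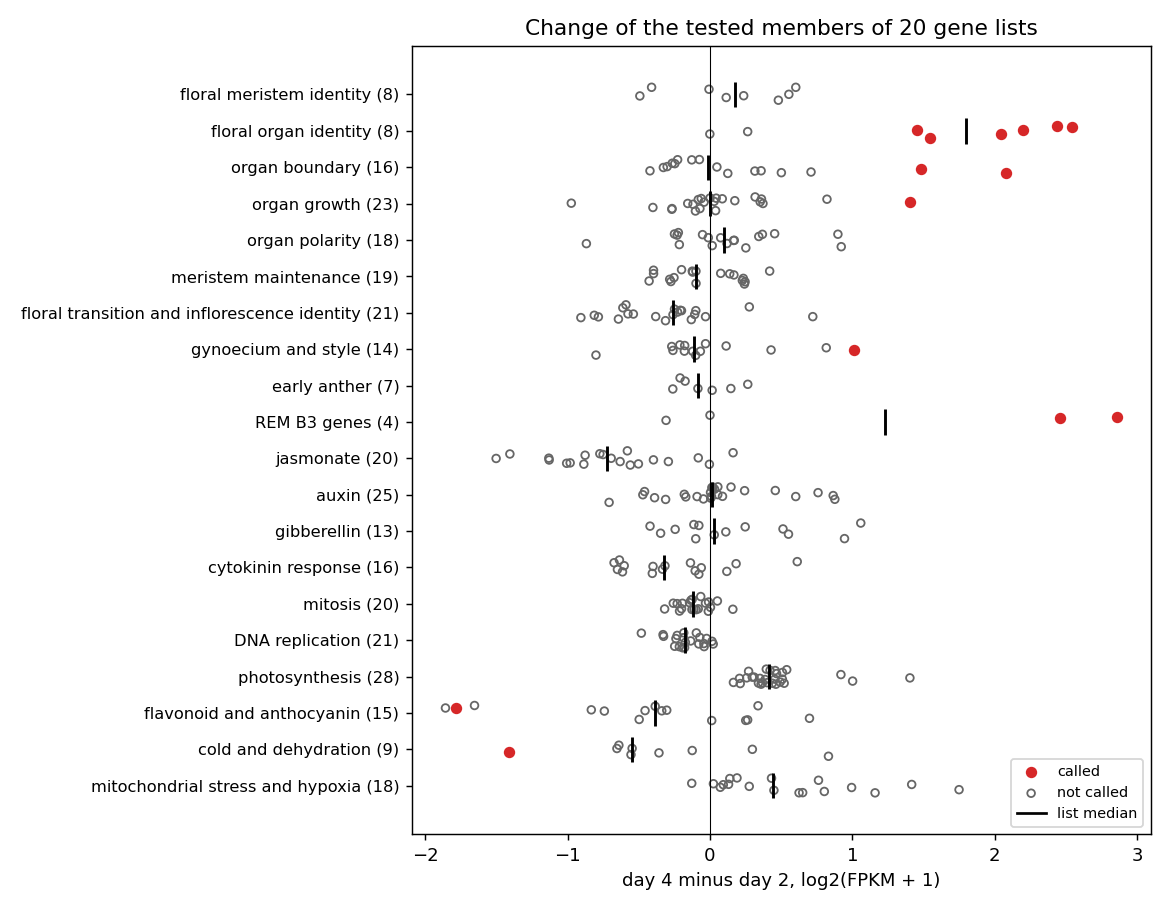
Change at day 4 minus day 2, in log2(FPKM + 1), of each tested member (points) of 20 gene lists, with list medians (black lines), filled points for the genes called and the number of tested members in brackets. The organ identity list holds 6 called genes and a median of 1.79, and the medians of the jasmonate list (-0.72) and the photosynthesis list (0.41) lie on either side of 0 with no member called.

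Some called genes lay close to each other in the genome, and all of these rose. Of the 2 called lectin genes on chromosome 1, which lie 3086 bases apart with 1 gene between them, AT1G78850 had 23.4, 19.1 and 17.8 FPKM at day 4, against 3.49 and 2.39 FPKM at day 2 (2.42 ± 0.23, SE, adjusted p = 0.0006), and AT1G78830 had 17.8, 19.0 and 15.7 FPKM, against 6.83 and 6.16 FPKM (1.3 ± 0.22, SE, adjusted p = 0.025). Directly adjacent were UGT73B2 and UGT73B1, which encode glucosyltransferases, with 562 bases between them, and BRU6, a GH3 gene for auxin conjugation, beside CYP81F3. UGT73B1 had 12.5, 12.7 and 13.2 FPKM at day 4, against 3.24 and 4.57 FPKM at day 2, and BRU6 had 24.2, 30.6 and 29.9 FPKM, against 9.23 and 9.16 FPKM. The calls of UGT73B1, UGT73B2, AT1G78830 and CYP81F3 were lost without any one of the 5 libraries, and that of BRU6 without any but replicate 1 of day 4, whereas that of AT1G78850 was kept. CYP81F3 is among the 11 genes that entered through day 4. Neighbours of similar sequence can share reads, so that the division of signal within the lectin and the UGT73B pair is uncertain, and UGT73B1 also overlaps an annotated gene on the opposite strand.

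Among wall and surface proteins, GRP3S, a glycine-rich protein, had 184, 216 and 257 FPKM at day 4, against 41.3 and 53.8 FPKM at day 2 (2.18 ± 0.18, SE, adjusted p = 0.00028). AT4G15160, a lipid transfer type protein, had 11.4, 9.51 and 7.93 FPKM, against 1.6 and 0.884 FPKM (2.25 ± 0.22, SE, adjusted p = 0.00091). Both kept their call in all leave-outs of a compared library. AT3G15356, a legume lectin family gene with 13.3, 8.33 and 10.4 FPKM, against 2.92 and 0.884 FPKM (2.08 ± 0.31, SE, adjusted p = 0.014), lost it without replicate 2 of day 2 or without replicate 1 or 3 of day 4. ENDO3, an endonuclease, had 22.3, 21.5 and 20 FPKM at day 4, against 5.01 and 5.66 FPKM at day 2 (1.81 ± 0.15, SE, adjusted p = 0.00025), and AT1G10220, with no description in the table, had 3.10, 3.68 and 3.52 FPKM, against 0.0064 and 0.348 FPKM (1.93 ± 0.22, SE, adjusted p = 0.0021), and entered the test through day 4. FOP1, an acyltransferase family member named for folded petals, had 8.52, 6.93 and 9.01 FPKM, against 2.26 and 2.34 FPKM, and LOG3, a cytokinin-activating enzyme, had 5.03, 4.65 and 5.33 FPKM, against 1.2 and 2.26 FPKM. The call of FOP1 was lost in 4 of the 5 leave-outs of a compared library and that of LOG3 in 3. Of the listed hormone genes, none of 25 auxin, 13 gibberellin or 16 cytokinin genes was called, although the gibberellin receptor gene GID1B, at 30, 33.6 and 29.3 FPKM, against 15 and 16.1 FPKM (0.94 ± 0.13, SE, adjusted p = 0.007), came near to the fold minimum. The medians of these lists were 0.01, 0.03 and -0.32 in the same order. Of the 16 cytokinin genes, 3 had a positive change, where 48.4% of all tested genes did. In 8 of the 16 every day 4 library lay below every day 2 library, where 22.1% of all tested genes did. Among them 1 passed the adjusted p downward but not the fold.

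Further rises included AT1G33590, a leucine-rich repeat gene, with 177, 178 and 169 FPKM at day 4, against 68.7 and 81.7 FPKM at day 2 (1.21 ± 0.11, SE, adjusted p = 0.00054), and DJ1A, of a family that protects against glyoxal and oxidative damage, with 94.4, 111 and 95.9 FPKM, against 35.7 and 43.3 FPKM (1.33 ± 0.15, SE, adjusted p = 0.0025). The call of AT1G33590 was kept in every leave-out of a compared library, and that of DJ1A was lost without replicate 1 of day 2. CYP709B2, a cytochrome P450 gene, was under 1 FPKM in both day 2 libraries, so that it too entered through day 4, and had 3.47, 4.47 and 4.06 FPKM at day 4. Among genes with bZIP factors as products, ABI5, known from abscisic acid responses of seeds, had 7.11, 8.6 and 8.06 FPKM at day 4, against 3.08 and 2.7 FPKM at day 2, and bZIP58 had 18.6, 22.9 and 22.5 FPKM, against 10.8 and 9.38 FPKM. Both had been at their day 2 level at day 0, within 0.08 on the log2 scale, and both calls were lost on leaving out at least 3 of the 5 libraries in turn.

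The 250 bases before the annotated start of each gene were searched for the CArG box, the site of MADS-domain proteins, and for CCANTG, a core recognised by LFY, on both strands. Of the 61 genes that rose, 1 (1.64%) held a CArG box, where 2.69% of 18156 promoters of tested genes did, and 12 (19.7%) held the LFY core, where 21.9% did. Of the 13 genes that fell, none held a CArG box and 3 (23.1%) held the LFY core. These shares are close to those of all promoters, in the reference sequence of another ecotype than the one studied, and no match says only that these letters are not in this window. The sequences below are those of the called MADS-box genes that hold the core (SEP2 and AGL15) and of LTL1, a lipase gene and the single called gene with a CArG box. They are from RefSeq on TAIR10.1 and read 5′ to 3′ along the gene, which lies on the minus strand in all 3, with the LFY core and the CArG box in capitals. The coordinates are chr3:467152-467401 for SEP2, chr5:4450959-4451208 for AGL15 and chr3:1136398-1136647 for LTL1.
SEP2: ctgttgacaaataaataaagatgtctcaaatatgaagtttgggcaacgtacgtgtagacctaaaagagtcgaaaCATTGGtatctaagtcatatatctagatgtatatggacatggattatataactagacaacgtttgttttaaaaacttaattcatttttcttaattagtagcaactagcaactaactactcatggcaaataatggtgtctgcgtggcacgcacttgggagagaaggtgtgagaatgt
AGL15: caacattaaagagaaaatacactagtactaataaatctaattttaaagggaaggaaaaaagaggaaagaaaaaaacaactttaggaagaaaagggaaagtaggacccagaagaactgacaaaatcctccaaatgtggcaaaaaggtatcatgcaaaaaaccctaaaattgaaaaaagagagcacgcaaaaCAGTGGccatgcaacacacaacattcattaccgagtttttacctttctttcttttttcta
LTL1: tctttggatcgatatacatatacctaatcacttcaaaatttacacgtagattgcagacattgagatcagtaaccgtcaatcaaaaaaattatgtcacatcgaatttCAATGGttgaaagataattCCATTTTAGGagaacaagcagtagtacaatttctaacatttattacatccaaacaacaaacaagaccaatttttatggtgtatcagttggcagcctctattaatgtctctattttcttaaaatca
In LTL1 the first capitals are the LFY core, and the longer run is the CArG box. LTL1 had 92.7, 92.0 and 90.0 FPKM at day 4, against 40.3 and 40.6 FPKM at day 2, and rose by 1.16 ± 0.21 on the log2 scale (SE, adjusted p = 0.030), a call lost without any one of the 5 libraries.

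To separate what was added in this step from what had begun earlier, the called genes were sorted by their difference of day 2 minus day 0, with a limit of 1.5-fold. Of the 61 rises, 26 had a difference of at least that size in the same direction (continued), 33 had a smaller one (added), and 2 had one in the opposite direction (reversed). Of the 13 falls, 3 were continued, 7 added and 3 reversed. The classes rest on the size of the means alone: only 12 of the 26 continued rises and 1 of the 3 continued falls were called at day 2 against day 0, and none of the 5 reversed genes was. These are descriptions by count, since both differences use the day 2 libraries, and a limit of 2-fold gave 16 continued, 45 added and 0 reversed rises and 1, 10 and 2 falls. The continued rises had median values of 1.14 at day 2 minus day 0 and 2.91 at day 4 minus day 0, against 0.07 and 1.35 for the added ones. The first difference is the one that sorted the genes, and the second contains it. The gaps between the classes thus follow in large part from the sorting. In the continued class stood AP3, AG, SEP2, SEP3 and JAG, which were also called at day 2 against day 0, and SEP1, which at 0.99 moved to the added class under the 2-fold limit. In the added class stood PI, SUP, RBE, REM22, AGL15, BLH2, BLH4 and NGA1. Of these, SUP, RBE and REM22 had at most 0.446 FPKM in every library of days 0 and 2. At such levels FPKM + 1 cannot differ by 1.5-fold, so that their class was fixed by the scale. The other rises under 1 FPKM in both day 2 libraries had little room to reach the limit.

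Against day 0, more genes were called at day 4 than at day 2. At day 2 against day 0, 67 genes were called (0.367% of those tested), and at day 4 against day 0, 415 (2.28%). These counts are not like for like, since day 2 had 2 libraries and day 4 had 3. The SE was therefore larger at day 2 (for AP3 0.127, against 0.114). The pooled SD within a day was also larger at day 2 (0.23, against 0.16). The 50 genes that had risen by day 2 had a median of 1.58 at day 2 and of 2.31 at day 4, and the 17 that had fallen had medians of -1.21 and -1.02, all relative to day 0. These comparisons share libraries, and the 50 and 17 genes were chosen by their day 2 values, so that the values are only set side by side.

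**Figure D3:**
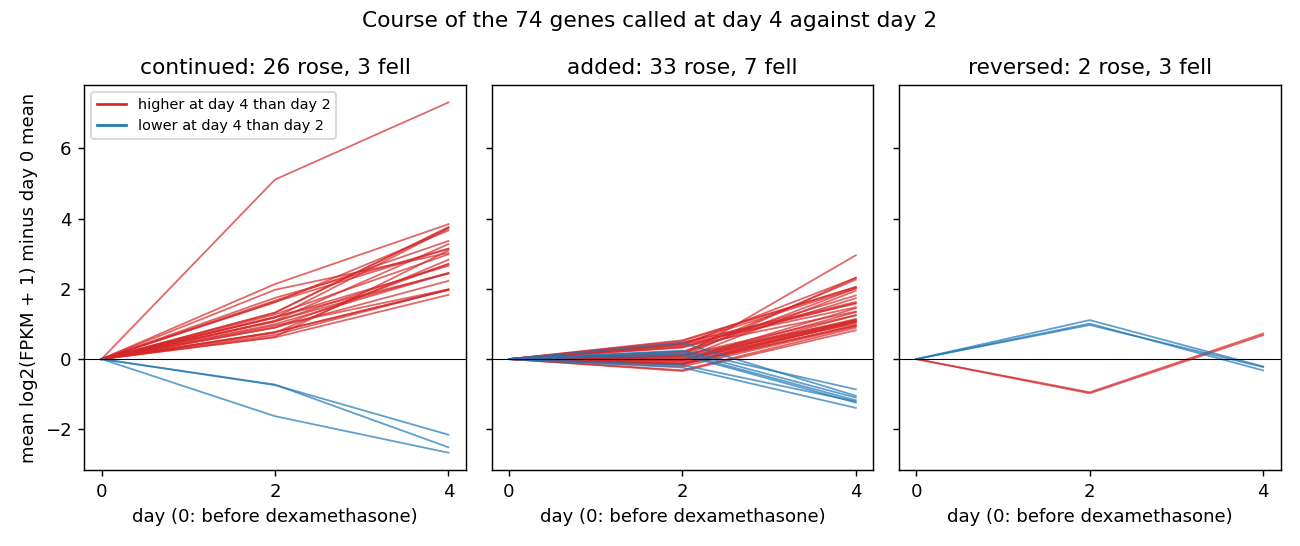
Mean log2(FPKM + 1) minus the day 0 mean at days 0, 2 and 4 of each of the 74 genes called at day 4 against day 2, split into those that continued, were added or reversed, in red where higher and in blue where lower at day 4 than at day 2. In the reversed class the day 2 means of 2 genes lie below and those of 3 genes above day 0, none of them called at day 2, and all 5 lie within 0.73 of their day 0 level at day 4.

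The genes of the reversed class were few, and none of their differences between days 2 and 0 was called, with adjusted p of 0.036 (BGLU6, under 2-fold), 0.076 (AT3G50280), 0.11 (AT3G16070), 0.17 (AT2G45180) and 0.28 (AT3G22121). Of the 50 genes that had risen and the 17 that had fallen by day 2, 0 were called by limma in the opposite direction at day 4 against day 2. In that direction 5 of each had an unadjusted limma p under 0.05. Among all 18235 tested genes, 1227 were lower and 1315 higher at that p. The 50 and 17 genes were chosen by day 2 values, which this comparison uses again. Movement back can therefore come from the choice. BGLU6, a beta-glucosidase gene, had 2.65, 1.79 and 1.91 FPKM at day 4, against 6.97 and 5.32 FPKM at day 2, and 2.56 to 2.70 FPKM had been measured at day 0. It fell by 1.2 on the log2 scale (SE 0.18, adjusted p = 0.014) and ended -0.23 from day 0. AT3G50280, an acyltransferase family gene, had 6.59, 4.75 and 4.23 FPKM at day 4, against 17.4 and 11.7 FPKM at day 2 (-1.32, adjusted p = 0.039), and AT3G16070 had 0.244, 0.853 and 0.542 FPKM, against 2.88 and 2.80 FPKM (-1.33, adjusted p = 0.042). At day 4 they stood -0.21 and -0.32 from day 0 on the log2 scale. In the opposite direction, AT2G45180, a lipid transfer type protein, had 39.8, 57.4 and 45.6 FPKM at day 4, against 13.4 and 15.1 FPKM at day 2 (1.66, adjusted p = 0.024), after 25.8 to 32.6 FPKM at day 0. The second was AT3G22121, an RNA with no protein product, with 153, 166 and 151 FPKM, against 56.0 and 42.0 FPKM (1.67, adjusted p = 0.047). Its whole length lies within another gene on the opposite strand, and its value cannot be told apart from that gene unless the counting used strand. Each of the 5 calls was lost on leaving out at least 3 of the 5 libraries in turn.

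In some lists the values lay nearer to day 0 at day 4 than at day 2, without single calls. For the jasmonate and photosynthesis lists alike, both differences use the day 2 libraries, and the lists were chosen with earlier results known. A return toward day 0 can therefore come in part from the choice. Of 20 tested jasmonate genes, none was called between days 4 and 2, but 19 had a negative change, with a median of -0.72 (-0.79 to -0.63 on leaving out any one of the 5 libraries), and in 15 every day 4 library lay below both day 2 libraries. Over all tested genes 51.5% had a negative change and 22.1% lay below without overlap. By day 2 the same list had a median of 1.01 above day 0, with 4 members risen, where 50 of 18235 tested genes had. At day 4 the list's median stood at 0.11 above day 0. JAZ5, a repressor of jasmonate signalling that jasmonate itself induces, had 14.1, 9.80 and 7.59 FPKM at day 4, against 37.4 and 25.1 FPKM at day 2 and 4.50 to 7.01 FPKM at day 0, and its change from day 2 had an adjusted p of 0.16 (-1.5 ± 0.44, SE). VSP1, a jasmonate-induced storage protein gene, had 1037, 799 and 525 FPKM, against 1407 and 1648 FPKM (-1.01 ± 0.31, SE, adjusted p = 0.19). LOX2, an enzyme of jasmonate synthesis, varied most within day 4, at 58.9, 12.9 and 20.9 FPKM, against 51.2 and 92.4 FPKM, with overlap. The median of the list over the day 4 libraries was 0.41, 0.12 and 0.12 above day 0, against 0.87 and 0.93 in the day 2 libraries.

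Photosynthesis genes had the opposite course. All 28 tested members had a positive change, with a median of 0.41 (0.24 without replicate 1 of day 2) and none called, and in 20 every day 4 library lay above both day 2 libraries. Over all tested genes 48.4% had a positive change and 19.1% lay above without overlap. All 28 had been below day 0 at day 2, with a median of -0.66, and at day 4 the median was -0.24 relative to day 0. LHCB2.2, a light-harvesting protein gene, had 154, 188 and 170 FPKM at day 4, against 118 and 136 FPKM at day 2 and 269 to 308 FPKM at day 0, and its change from day 2 was 0.42 ± 0.14 (SE, adjusted p = 0.21). The list's median in single libraries was -0.22, -0.24 and -0.20 at day 4, against -0.84 and -0.51 at day 2. Photosynthesis genes also stand for green tissue such as leaf and stem, and the part of such tissue in these values was not tested.

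Mitochondrial stress and hypoxia genes had values above day 2 in this step, again without a call. Of 18 members tested, 17 had a positive change, with a median of 0.44 (0.18 without replicate 2 of day 2), against 48.4% positive over all tested genes. In 9 of the 18 every day 4 library lay above both day 2 libraries, where 19.1% of all tested genes did. By day 2, 4 members had risen, where 50 of 18235 tested genes had. ANAC013, a regulator of the mitochondrial stress response, had 82.3, 81.0 and 89.4 FPKM at day 4, against 46.6 and 37.4 FPKM at day 2 and 10.3 to 11 FPKM at day 0, and its change of 0.99 ± 0.11 (SE, adjusted p = 0.0021) was just under 2-fold. AOX1A, the alternative oxidase gene, had 63.6, 59.6 and 80.1 FPKM, against 35.9 and 16.7 FPKM (1.42 ± 0.32, SE, adjusted p = 0.076). HRE2, a hypoxia-responsive ethylene response factor gene, had 56.1, 69.6 and 97.0 FPKM, against 31.0 and 13.9 FPKM (1.75 ± 0.40, SE, adjusted p = 0.078). For AOX1A and HRE2 the day 2 libraries differed by more than 2-fold from each other, and the day 4 libraries lay above both.

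Falls in this step were led by LDOX, which makes anthocyanidins. It had 0.437, 0.503 and 0.480 FPKM at day 4, against 7.30 and 2.1 FPKM at day 2, and fell by 1.78 on the log2 scale (SE 0.31, adjusted p = 0.029). At day 0 it had 7.18 to 7.51 FPKM, so that replicate 1 of day 2 was at the day 0 level and replicate 2 lay between the days. DFR, the enzyme before it in the pathway, had a like pattern, with 0.351, 0.255 and 0.328 FPKM at day 4, against 6.92 and 1.85 FPKM at day 2 (-1.86 ± 0.39, SE, adjusted p = 0.061). TT19, a glutathione transferase needed for anthocyanin storage, had 0.886, 0.905 and 1.37 FPKM, against 9.78 and 2.82 FPKM (-1.65 ± 0.42, SE, adjusted p = 0.11). LDOX was the only one called of 15 tested flavonoid genes, where 0.0713% of all tested genes fell. Its call was lost without replicate 1 of day 2 or any one library of days 0 and 4. Its change was -1.07 without replicate 1 of day 2 and -2.5 without replicate 2. The list's median was -0.38, with -0.15 without replicate 1 of day 2 and -0.65 without replicate 2.

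**Figure D4:**
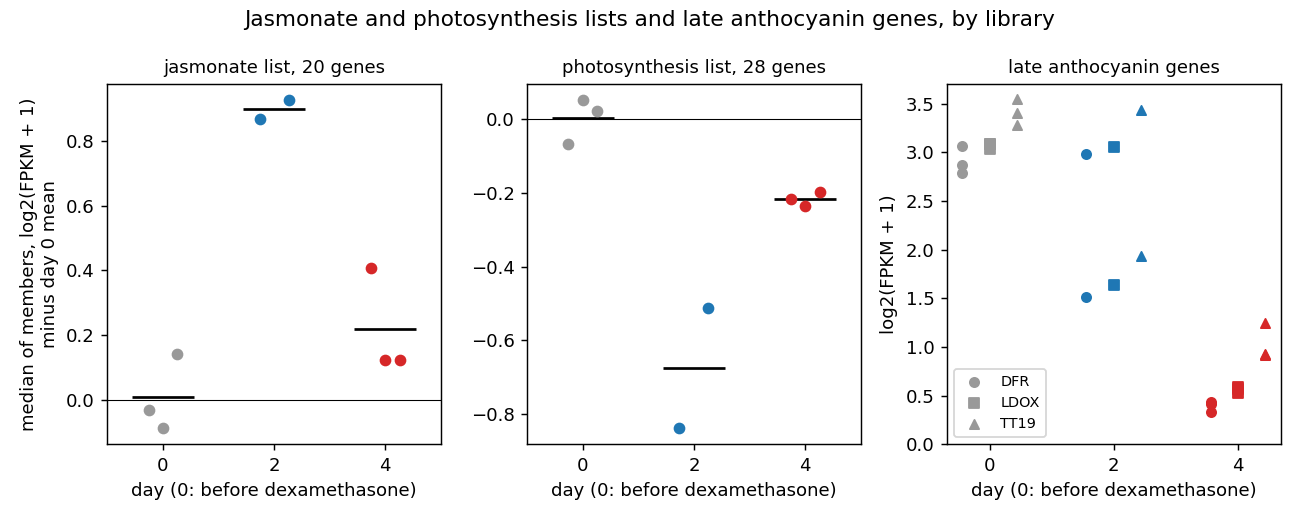
Median over the members of the jasmonate list (20 genes) and of the photosynthesis list (28 genes) of log2(FPKM + 1) minus the day 0 mean in each library of days 0, 2 and 4 (points) with day means (lines), and log2(FPKM + 1) of the anthocyanin genes DFR, LDOX and TT19 in each library. The jasmonate list is highest and the photosynthesis list lowest at day 2, and replicate 1 of day 2 has the anthocyanin genes at their day 0 level while the 3 day 4 libraries are low.

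The other falls were small in number and of mixed kinds. AT2G43550, a knottin family peptide gene, had 24.3 ± 7.57 FPKM at day 4 (SD, n = 3), against 69.7 ± 15.1 FPKM at day 2 (SD, n = 2) (-1.51 ± 0.23, SE, adjusted p = 0.014), and COR15A, which protects chloroplast membranes in the cold, had 3.92, 4.1 and 5.70 FPKM, against 17.1 and 10.9 FPKM (-1.41 ± 0.27, SE, adjusted p = 0.040). COR15A was the 1 called gene among 9 tested cold and dehydration genes, where 0.0713% of all tested genes fell. The median of these 9 genes was -0.55, or 0.43 without replicate 1 of day 2. RTFL7, a small peptide of a family that limits organ growth, had 1.42, 0.965 and 1.04 FPKM at day 4, against 4.36 and 4.32 FPKM at day 2 (-1.32 ± 0.18, SE, adjusted p = 0.0067), and was lost only without replicate 1 of day 2. MYB82, a MYB factor of trichome development, had 33.3, 29.8 and 26.8 FPKM, against 74.7 and 60.9 FPKM (-1.15, adjusted p = 0.028). AT3G59270 fell by 1.35 and AT3G05727 by 1.31 on the log2 scale, at adjusted p of 0.026 and 0.018. The day 4 and day 2 libraries did not overlap for any of these 6 genes, and every one of the 6 calls was lost without replicate 1 of day 2.

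Markers of other tissues did not add calls. None of the tested markers of mature pollen, tapetum, xylem, phloem or epidermis was called at day 4 against day 2. The summed level of 14 epidermis markers was 4539 to 4931 FPKM at day 4, against 3098 to 3720 FPKM at day 2, and that of 12 phloem markers 287.8 to 307.4 FPKM, against 245.3 to 271.0 FPKM, so that both sums were higher at day 4 without overlap. The sum of 12 xylem markers was 44.8 to 51.8 FPKM, against 35.3 to 47.8 FPKM. Of 12 pollen markers and 12 tapetum markers, 2 each were in the table, at sums of 2.17 to 2.67 FPKM and 40.6 to 41.9 FPKM at day 4, against 2.86 to 3.32 FPKM and 42.2 to 48.4 FPKM at day 2. Whether the shares of these tissues have a part in the changes above was not tested.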

How the data were processed

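Total RNA of inflorescences pooled per replicate was sequenced on day 0 (3 libraries), day 2 (2), day 4 (3) and day 8 (3). Per the submitters' processing notes, the tools were STAR and RSEM 1.2.22, with TAIR10. The authors deposited FPKM values of 20971 genes, brought to one common distribution: the column totals were 734615 to 734624 FPKM and values of equal rank differed between columns by 0.0848% (median over ranks). The depth of each library is therefore unknown and no counting interval was given. The authors' mean columns and their p-value and FDR columns, which test the days, were not used.

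Values were analysed as log2(FPKM + 1), a scale that understates the change of low genes. All 11 libraries entered 1 limma 3.58.1 fit (R 4.3.3) in which each of the 4 days was a group (7 residual degrees of freedom, variance trend), and p-values were adjusted by Benjamini-Hochberg over 18235 genes. A call needed an adjusted p under 0.05 and 2-fold. The method was tested on simulated data. Nothing in the sources says which replicates of different days belong together, and p-values measure the spread between pools.

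The comparison and the 25 lists (437 genes listed, 362 tested) were chosen with earlier results of these data known. Genes were named as the 15 largest rises, the 10 largest falls, called members of the lists and all organ identity genes. Other genes named were picked after their values had been seen. Promoters came from RefSeq, where 20867 of the 20971 genes matched by locus tag. Alternatives were the pseudocount, filter, scaling, trend, moderation, libraries in the fit, replicate block and leaving out each library.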

Additional observations from a re-analysis of the deposited data

How the results depend on the processing

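The counts of 61 genes that rose and 13 that fell moved with several settings. With day 8 left out of the fit, 109 rose and 34 fell, and with no fold minimum 114 and 56. The ordinary test without moderation gave 29 and 2, only the 5 libraries of days 2 and 4 gave 73 and 25, and a minimum of 5 FPKM gave 51 and 8. Leaving out each of the 11 libraries in turn gave 29 to 81 rises and 1 to 47 falls, and where this left 1 library at day 2 it was taken to vary like the other days. A pseudocount of 0.1 gave 69 and 13, one of 1e-06 gave 62 and 9, median-ratio rescaling gave 56 and 12, no filter 58 and 13, and no variance trend 57 and 13. No called gene turned its direction under any of these settings. The fit with the replicate number as a block gave 52 rises and 11 falls, and 19 of the 74 calls were lost. Deviations of libraries with the same number correlated by 0.07 and 0.10 between days 2 and 4 and by -0.26 to 0.16 over all pairs of days, so that the numbers were not taken as pairs. The pooled SD of a gene within a day was 0.15, 0.23, 0.16 and 0.31 at days 0, 2, 4 and 8, and all 4 days enter each SE of the main fit. The causes of these shifts were not tested. With depth unknown and 2 libraries at day 2, values under about 1 FPKM carry an error that could not be given.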
